A study of Mus musculus with 4 samples.

Results

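Rbpj, the DNA-binding protein through which Notch receptors act, was followed together with 8 genes that work with it or answer to it in single-nucleus RNA sequencing of mouse liver. The 9 genes were taken by symbol from the 32285 mouse genes counted. They are Rbpj, its coactivators Maml1, Maml2 and Maml3, its corepressor Spen, and the direct targets Hes1, Hey1, Heyl and Nrarp. The CKO mice lacked Rbpj in hepatic progenitor cells and the WT mice were wild type. All were male and were given DDC, a diet that injures bile ducts, for 4 weeks, starting at an age of 10 to 11 weeks. The labels give 2 libraries for each genotype (CKO replicates 1 and 2, and WT replicates 1 and 2). They name neither the Cre line nor the deleted exons, and they do not say whether the replicates were separate animals, so p-values measure only the spread between these libraries, which may be technical.

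A Notch receptor that binds a Jagged or Delta-like ligand on a neighbouring cell is cut, and its intracellular part moves to the nucleus. There it joins Rbpj on DNA, and a Mastermind-like protein (Maml1, Maml2 or Maml3) docks on the pair and brings in histone acetyltransferases. Without that signal, Rbpj can sit on the same sites with corepressors such as Spen and keep the genes off. In the liver the pathway is known for guiding biliary fate and bile duct formation, and in other cells for arterial identity in endothelium and for the differentiation of some myeloid and dendritic cells.

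Rbpj recognises DNA with the core letters TGGGAA. The windows of 250 bases before an annotated start (RefSeq, GRCm38.p6) were searched for TGGGAA, which reads TTCCCA on the other strand, and for CACGTG, an E-box that Hey proteins can bind and that reads the same on both strands. Windows were found for 6 of the 9 genes, 8 in all because Rbpj and Maml2 each had a pair of starts, whose windows overlap for Rbpj. TGGGAA was present in 5 of the 8 windows, those of Rbpj, one of Maml2, Maml3 and Spen, and CACGTG in 1, that of Nrarp. Of 32851 windows of this length, 21.6% held TGGGAA and 6.02% held CACGTG. The letters are shown for Rbpj, the deleted gene, and for Nrarp, a target, with the matches in capitals. A match describes the letters and no binding was measured. The Rbpj window lies at chr5:53590096-53590345, plus strand, before the first of its 2 starts with a window. It falls within the annotated gene, which runs from 53466152 to 53657362. The Nrarp window lies at chr2:25180508-25180757, plus strand.
Rbpj: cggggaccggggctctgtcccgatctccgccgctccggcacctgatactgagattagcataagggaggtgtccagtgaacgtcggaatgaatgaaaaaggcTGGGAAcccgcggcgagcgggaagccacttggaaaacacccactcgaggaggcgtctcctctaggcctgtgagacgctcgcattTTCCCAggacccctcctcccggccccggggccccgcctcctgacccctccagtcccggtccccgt
Nrarp: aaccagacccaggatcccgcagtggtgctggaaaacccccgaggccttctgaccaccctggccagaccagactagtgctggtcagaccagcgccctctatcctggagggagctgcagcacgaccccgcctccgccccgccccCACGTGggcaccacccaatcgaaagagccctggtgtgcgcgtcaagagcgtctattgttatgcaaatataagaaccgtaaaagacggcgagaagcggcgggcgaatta

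The libraries held 12261329 to 45620141 unique molecular identifiers (UMIs, counted transcripts) in 5184 to 16000 barcodes, and any 2 libraries shared 19 to 114 barcodes. After doublet removal 39017 of 43664 barcodes were kept, and 18273 fell into clusters that could be named from marker genes, called cholangiocyte-like, macrophage-like and so on. The members were left out of clustering and naming. In the 3 classes compared first, 9 to 12 of 12 class markers lay at least 1.5 times above unnamed barcodes in every library, while hepatocyte-like nuclei had 2 to 4 of 12. In the order CKO replicates 1 and 2, then WT replicates 1 and 2, there were 496, 45, 1451 and 313 cholangiocyte-like nuclei, 2229, 168, 2688 and 420 macrophage-like and 903, 152, 1351 and 240 endothelial-like. Libraries stood apart in clustering: macrophage cluster 16 held 2200 nuclei of CKO replicate 1 and 10 of both WT libraries, endothelial cluster 10 held 833 of its 910 nuclei from CKO replicate 1, and hepatocyte-like clusters were close to 1 per library. Free RNA, estimated from unnamed barcodes, made up 57.8% and 63.8% of cholangiocyte-like UMIs in CKO against 51.3% and 57.4% in WT, 76.3% and 79.4% of macrophage-like UMIs in CKO against 66.3% and 72.5% in WT, and 79.6% and 83.7% of endothelial-like UMIs in CKO against 70.1% and 72.3% in WT. A Cre sequence (eGFPcre) counted beside the mouse genes had 5 and 4 UMIs in the CKO libraries and 54 and 0 in the WT libraries. The labels do not say whether the WT mice carried Cre, so the changes without WT replicate 1 are given after the comparisons. Groups follow the labels throughout; an exchange of labels between libraries was not tested, and one between the first replicates would turn the sign of every comparison within them. Annotated genes on the other strand overlap Rbpj, the 3 Maml genes, Spen and Nrarp, and the strand setting of the counting is not given in the sources used here, so reads of such pairs cannot be told apart.

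Rbpj (ENSMUSG00000039191, chromosome 5, 53466152 to 53657362, plus strand, GRCm38) was found in all 5 classes that had at least 20 nuclei in each library. Levels are given as CPM (counts per 1e6 UMIs of the class in that library) and as mean ± SD over the 4 libraries. These UMIs include free RNA, with the shares given above and 27.8% to 38.5% in hepatocyte-like and 55.4% to 70.5% in mesenchymal-like nuclei. A larger share lowers the CPM of genes from the nuclei themselves. All orders of classes here are of CPM as counted, and orders without free RNA were not tested. Macrophage-like nuclei stood at 79.3 ± 32.7 CPM, cholangiocyte-like at 65.3 ± 17.4, mesenchymal-like at 61.2 ± 22.1, hepatocyte-like at 54.4 ± 9.04 and endothelial-like at 45.9 ± 13.5 (n = 4). No neighbours in this order differed by more than the larger of their SDs. In each class and library the level was above that of the unnamed barcodes, whose mean was 35.6 ± 15.3 CPM, but not always beyond counting error. For endothelial-like nuclei of CKO replicate 1 the 95% exact Poisson interval, 39.0 to 58.5 CPM, took in the unnamed level of 42.3. The same held for WT replicate 2, at 15.7 to 50.5 CPM against 26.0. In CKO replicate 2 it held for cholangiocyte-, macrophage- and mesenchymal-like nuclei, with lower limits of 11.2, 17.45 and 12.5 CPM against 20.2. Free RNA would account for 62.6% of the Rbpj UMIs in endothelial-like nuclei and for 21.5% to 35.9% in the other 4 classes.

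Dendritic-like nuclei held the highest Rbpj level of the 9 named classes, 381 ± 260 CPM (n = 4), and 1 of their 2 clusters held most of it. Dendritic-like cluster 5 was led by Flt3, the receptor for the dendritic cell growth factor Flt3 ligand, by Wdfy4, which serves antigen cross-presentation, and by Itgae, an integrin. It had 57 and 2 Rbpj UMIs in CKO replicates 1 and 2, or 301 and 501 CPM, against 225 and 21 UMIs, or 625 and 1880 CPM, in WT replicates 1 and 2. The 2 first replicates hold 83 CKO and 150 WT nuclei, and their 95% exact Poisson intervals, 228 to 390 CPM in CKO and 546 to 712 CPM in WT, do not overlap. These intervals cover counting error only, and the second replicates hold 2 CKO and 5 WT nuclei, so no test across libraries was made. Dendritic-like cluster 13, led by Siglech, a lectin of plasmacytoid dendritic cells, had 75.3 and 71.8 CPM in CKO and 84.0 and 53.0 CPM in WT, on 1 to 21 UMIs a library. Free RNA would account for 9.56% of the dendritic-like Rbpj UMIs. Of all dendritic-like UMIs it made up 80.9% and 74.0% in CKO and 70.0% and 65.2% in WT. A larger share lowers the CPM of a gene that is scarce in free RNA, and its part in the difference between the genotypes was not tested.

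Among macrophage-like nuclei, which were clustered again on values centred per library without the members, Rbpj was highest in sub-cluster 3. The leading genes of that sub-cluster were mixed. They included F13a1, a coagulation factor subunit of monocytes, and Vcan, a monocyte proteoglycan. Among them was also Cbfa2t3, a leading gene of dendritic-like cluster 5 as well. Gm15987 and Grap2 were shared in the same way with the B cell-like and the T and NK cell-like clusters. The sub-cluster had too few subtype markers raised (2 of 9) for a name. Rbpj stood there at 238 and 253 CPM in CKO (53 and 3 UMIs) and at 225 and 346 CPM in WT (137 and 16 UMIs). Monocyte-derived-like sub-clusters had 89.5 and 21.6 CPM in CKO and 122 and 124 CPM in WT. Kupffer-like nuclei, the resident liver macrophages, had 44.5 and 8.59 CPM in CKO and 69.0 and 31.3 CPM in WT. In all 4 libraries sub-cluster 3 was above both. Kupffer-like nuclei were below monocyte-derived-like ones in CKO replicate 1 and both WT libraries with intervals that do not overlap, while CKO replicate 2 had 1 UMI in Kupffer-like and 2 in monocyte-derived-like nuclei and gives no order.

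**Figure D1:**
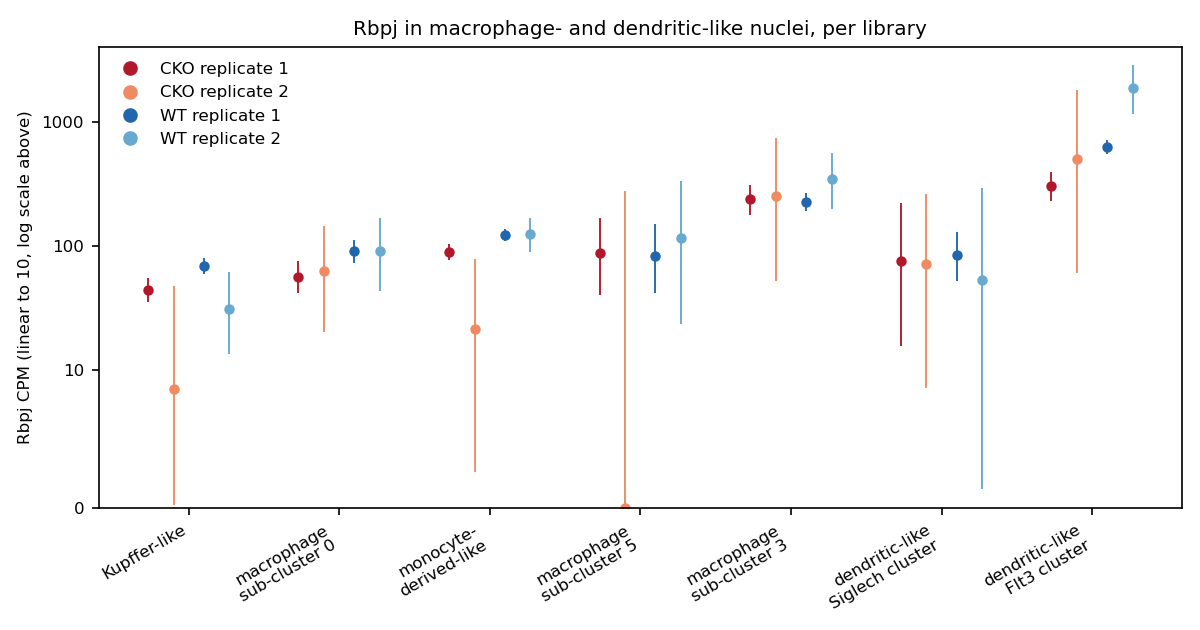
Rbpj level (CPM, linear up to 10 and logarithmic above) in macrophage-like sub-clusters and dendritic-like clusters, 1 point per library with its 95% exact Poisson interval, CKO libraries left of WT libraries in each group. Macrophage sub-cluster 3 (225 to 346 CPM) and the dendritic-like Flt3 cluster (301 to 1880 CPM) stand above Kupffer-like nuclei (8.59 to 69.0 CPM) in every library.

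The 3 coactivators were spread differently over the classes. Counts in this assay can depend on gene length, which runs from 2.58 kb for Nrarp to 419 kb for Maml3, so each gene is compared between classes and not with other genes. Maml2 (ENSMUSG00000031925, chromosome 9, 13297957 to 13709388) was high outside hepatocytes. Its mean was 667 ± 200 CPM in cholangiocyte-like, 634 ± 109 in endothelial-like, 552 ± 109 in macrophage-like and 467 ± 111 in mesenchymal-like nuclei, neighbours that did not differ beyond their SDs, against 41.9 ± 21.3 CPM in hepatocyte-like nuclei (n = 4). Hepatocyte-like nuclei were the lowest class in all 4 libraries and lay below the unnamed barcodes in all 4, with 75.7% of their Maml2 UMIs accounted for by free RNA.

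Maml3 (ENSMUSG00000061143, chromosome 3, 51685907 to 52105076) was graded. The means were 640 ± 144 CPM in cholangiocyte-like, 484 ± 64.6 in mesenchymal-like and 379 ± 93.5 in endothelial-like nuclei, then 244 ± 88.4 in macrophage-like and 182 ± 63.3 in hepatocyte-like ones (n = 4). Each class was above the next in all 4 libraries, by more than the larger SD at every step except the last. Cholangiocyte-like nuclei had 657 and 431 CPM in CKO and 733 and 738 CPM in WT, from 967 and 42 UMIs in CKO and 3370 and 509 UMIs in WT. Maml1 (ENSMUSG00000050567, chromosome 11, 50255634 to 50292311) had 50.7 ± 1.70 CPM in hepatocyte-like and 46.5 ± 7.75 in cholangiocyte-like nuclei, and 26.7 to 32.6 CPM on average in the other 3 classes. Free RNA would account for 9.34% of the hepatocyte-like Maml1 UMIs.

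Within classes, Maml3 and Maml2 also varied between sub-clusters. Maml3 had 190 and 106 CPM in CKO and 321 and 187 CPM in WT vessel-like endothelial nuclei. Sinusoid-like endothelial nuclei, from the specialised capillaries of the liver, had 374 and 279 CPM in CKO and 528 and 491 CPM in WT. They were above vessel-like nuclei in all 4 libraries, though CKO replicate 2 had 5 Maml3 UMIs in vessel-like nuclei. Unnamed sub-cluster 1 had 466.5 and 355 CPM in CKO and 638 and 348 CPM in WT, below sinusoid-like nuclei in WT replicate 2 only. Endothelial-like sub-cluster 3, with macrophage gene Adgre1 among its leaders, had 457.5 and 397 CPM in CKO and 585 and 628 CPM in WT. Central vein-like nuclei had 223 and 0.0 CPM in CKO and 316 and 55.55 CPM in WT. Maml2 was low in macrophage-like sub-cluster 3, the one with the most Rbpj, with 306 and 0.0 CPM in CKO (68 and 0 UMIs) and 401 and 367 CPM in WT (244 and 17 UMIs). The other macrophage-like nuclei had 521 and 433 CPM in CKO and 653 and 668 CPM in WT. Sub-cluster 3 had 481 and 169 CPM of Maml3 in CKO and 541 and 432 CPM in WT, against 265 and 116 CPM in the other CKO and 301 and 250 CPM in the other WT macrophage-like nuclei, on 2 UMIs in CKO replicate 2.

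**Figure D2:**
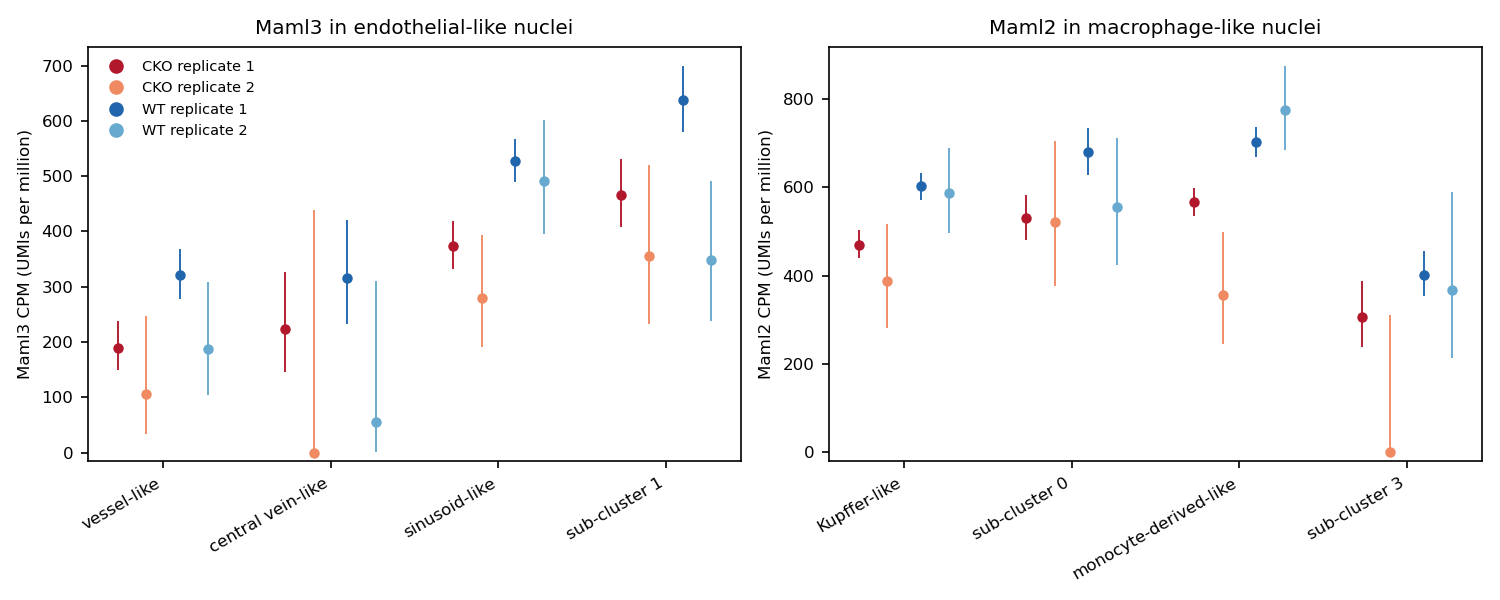
Left, Maml3 level (CPM) in endothelial-like sub-clusters, and right, Maml2 level (CPM) in macrophage-like sub-clusters, 1 point per library with its 95% exact Poisson interval, CKO left of WT. Sinusoid-like nuclei (279 to 528 CPM) lie above vessel-like nuclei of the same library (106 to 321 CPM), and macrophage-like sub-cluster 3 lies at 0.0 to 401 CPM of Maml2. Endothelial-like sub-cluster 1 lies at 348 to 638 CPM of Maml3.

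Spen (ENSMUSG00000040761, chromosome 4, 141467890 to 141538597), a large protein that bridges Rbpj to histone deacetylases, had a narrow range. The means were 87.3 ± 5.22 CPM in hepatocyte-like, 74.5 ± 16.1 in cholangiocyte-like, 69.1 ± 11.7 in macrophage-like, 49.0 ± 10.4 in endothelial-like and 42.4 ± 11.4 in mesenchymal-like nuclei (n = 4). The step between macrophage-like and endothelial-like nuclei was the only one beyond the larger SD.

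Of the targets, Hes1 and Heyl were each above the free RNA level in part of the classes, while Hey1 and Nrarp were close to absent. Hes1 (ENSMUSG00000022528, chromosome 16, 30064384 to 30067796), a repressor of the basic helix-loop-helix family, was highest in cholangiocyte-like nuclei, at 48.2 ± 7.06 CPM, against 37.0 ± 5.80 in hepatocyte-like nuclei (n = 4), a step beyond the larger SD and present in all 4 libraries. Mesenchymal-like nuclei stood at 35.1 ± 11.1 CPM, endothelial-like at 28.2 ± 9.29 and macrophage-like at 23.2 ± 8.12. Free RNA would account for 36.3% of the cholangiocyte-like Hes1 UMIs, 24.4% of the hepatocyte-like, 56.0% of the mesenchymal-like, 78.9% of the endothelial-like and 88.2% of the macrophage-like ones. In WT replicate 1 endothelial-like nuclei had 129 Hes1 UMIs against 83.6 expected from free RNA, and macrophage-like nuclei 227 against 165. In CKO replicate 1 the counts were below those expected, with 51 against 59.3 and 125 against 143 in the same order. The second replicates did not repeat this contrast. CKO replicate 2 was above the expected counts, with 8 against 4.02 and 6 against 4.38. WT replicate 2 was near them, with 8 against 7.82 and 12 against 13.8. Hes1 was above the unnamed barcodes in 2 of 4 libraries in mesenchymal- and endothelial-like nuclei and in 1 of 4 in macrophage-like nuclei.

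Heyl (ENSMUSG00000032744, chromosome 4, 123233556 to 123249875), a Hey family repressor known from vascular smooth muscle and pericytes, was a mesenchymal gene here. Mesenchymal-like nuclei gave 94 of the 145 Heyl UMIs of named nuclei (64.8%), while they hold 6.37% of all UMIs of named nuclei. Their level was 25.01 and 0.0 CPM in CKO (26 and 0 UMIs) and 29.1 and 23.4 CPM in WT (58 and 10 UMIs). The count of 0 in CKO replicate 2 allows up to 17.0 CPM (3 UMIs). Stellate-like nuclei had 3 and 0 Heyl UMIs in CKO, or 21.2 and 0.0 CPM, on 52 and 11 nuclei. In WT they had 26 and 5 UMIs, or 36.1 and 44.9 CPM, on 252 and 54 nuclei. Portal fibroblast-like nuclei had 25.7 and 0.0 CPM in CKO (5 and 0 UMIs) and 32.7 and 24.9 CPM in WT (18 and 3 UMIs). Unnamed sub-cluster 2 had 18.4 and 0.0 CPM in CKO (10 and 0 UMIs) and 25.1 and 11.1 CPM in WT (10 and 1 UMIs). The other mesenchymal-like sub-clusters held 13 Heyl UMIs over all libraries. The mean level in each of the other 4 classes was 1.83 CPM or less.

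Hey1 (ENSMUSG00000040289, chromosome 3, 8663359 to 8667256), a repressor of arterial endothelium, had 31 and 3 UMIs in the kept CKO barcodes and 14 and 0 in the kept WT barcodes. Cholangiocyte-like nuclei held 0 Hey1 UMIs in every library, which allows up to 2.04 and 30.8 CPM in CKO and 0.652 and 4.35 CPM in WT. Endothelial-like nuclei held 3 and 0 UMIs in CKO and 2 and 0 in WT, of which 3 and 0 in CKO and 1 and 0 in WT were in vessel-like nuclei. Nrarp (ENSMUSG00000078202, chromosome 2, 25180758 to 25183339), which dampens Notch signalling by binding the receptor's intracellular part, had 63 and 1 UMIs in CKO and 40 and 8 in WT. Its mean stood at 0.390 to 1.65 CPM in the 5 classes. Differences in Hey1 and Nrarp were not detectable at this depth, and intervals and limits cover counting error only.

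**Figure D3:**
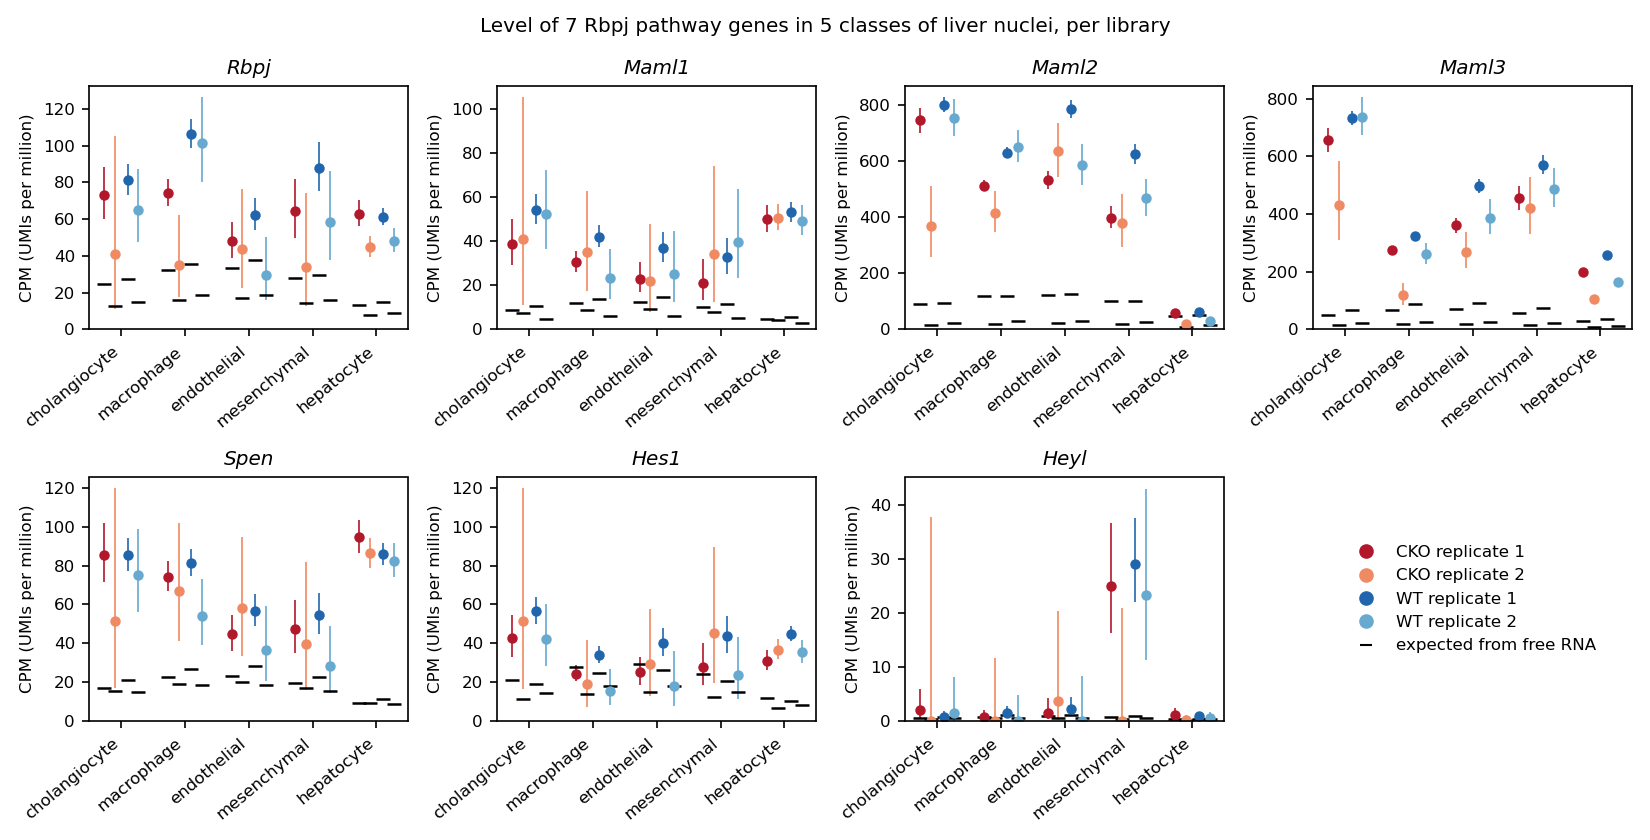
Level (CPM) of 7 genes in the 5 compared classes, 1 point per library with its 95% exact Poisson interval, CKO libraries left of WT libraries, and a black dash for the level expected from free RNA. Maml2 is low in hepatocyte-like nuclei only, Maml3 is highest in cholangiocyte-like nuclei, Heyl stands at 0.0 to 29.1 CPM in mesenchymal-like nuclei, and the Hes1 intervals of macrophage- and endothelial-like nuclei reach the dashes except in WT replicate 1.

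CKO and WT were then compared within each class, to ask whether the genes around Rbpj differed where it was deleted and in the neighbouring cells. The counts of each class were summed per library and fitted with edgeR's quasi-likelihood test over all genes that passed its low-count filter, and a gene was called at a Benjamini-Hochberg adjusted p under 0.05. In cholangiocyte-like nuclei, which share markers with hepatic progenitor cells, 6 of the 9 members passed the filter (Rbpj, Maml1, Maml2, Maml3, Spen and Hes1), and 0 of the 6 were called, against 0.0% of 10471 genes tested. The same 6 passed and 0 were called in macrophage-like nuclei (0.0% of 12214 genes) and in endothelial-like nuclei (0.0% of 10102). At an unadjusted p under 0.05 there were 526, 650 and 523 genes in these 3 classes in that order, and 0 of the members. DESeq2 called 0, 4 and 2 genes. These counts depend on single libraries: with each library left out in turn, edgeR called 0 to 36 genes in cholangiocyte-like, 0 to 65 in macrophage-like and 0 to 422 in endothelial-like nuclei, 36 and 65 in the first 2 classes when CKO replicate 1 was dropped, and 296 and 422 in the third when CKO replicate 1 or 2 was. Leaving out WT replicate 2 gave 7, 39 and 6 in the same order of classes, and leaving out CKO replicate 2 gave 10 in macrophage-like nuclei. No member was called in any of these fits.

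Rbpj in cholangiocyte-like nuclei had 108 and 4 UMIs in CKO, or 73.4 and 41.1 CPM, and 374 and 45 UMIs in WT, or 81.3 and 65.2 CPM. The CKO values lie on both sides of WT replicate 2, so the groups overlap. The log2 change, CKO over WT, was -0.06 (SE 0.26, 95% interval -0.66 to 0.53, edgeR adjusted p = 1.0). It was 0.01 within the first and -0.79 within the second replicates, where CKO rests on the 4 UMIs. Since the deleted exons are not given and a 3' tag outside them would still be counted, these values do not check the deletion.

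The 3 coactivators in cholangiocyte-like nuclei were lower in CPM in both CKO libraries than in both WT libraries. Such orders, here and below, are of CPM as counted. The edgeR log2 changes and those within replicates are also scaled between libraries (TMM). Maml1 had 38.8 and 41.1 CPM in CKO and 54.1 and 52.2 CPM in WT, a log2 change of -0.37 (SE 0.27). Maml2 had 745 and 370 CPM in CKO and 801 and 754 CPM in WT (log2 change -0.38, SE 0.36). Maml3, with the levels given above, had a log2 change of -0.35 (SE 0.32). Each had an edgeR adjusted p of 1.0, and each 95% interval covers 0, for Maml1 from -0.99 to 0.24. All tested genes show such an order often: 21.3% of the 10471 genes were lower in both CKO libraries than in both WT libraries, and 8.88% were higher. Within the first replicates Maml2 and Maml3 had log2 changes of 0.06 and 0.00, and within the second replicates, where CKO has 45 nuclei, -1.16 and -0.91. Maml1 was at -0.31 within the first and -0.47 within the second replicates.

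Spen and Hes1 in cholangiocyte-like nuclei overlapped between the genotypes. Spen had 85.7 and 51.3 CPM in CKO and 85.4 and 75.4 CPM in WT (log2 change 0.04, SE 0.25). Hes1, the target with the most UMIs, had 63 and 5 UMIs in CKO, or 42.8 and 51.3 CPM, and 261 and 29 UMIs in WT, or 56.7 and 42.0 CPM. Its log2 change was -0.15 (SE 0.27, 95% interval -0.76 to 0.46, edgeR adjusted p = 1.0). The remaining targets were below the filter in this class: Heyl had 3 and 0 UMIs in CKO and 3 and 1 in WT, and Nrarp 5 and 0 in CKO and 8 and 1 in WT.

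In macrophage-like nuclei Rbpj had the smallest adjusted p of any member in the 3 classes. It had 381 and 11 UMIs in CKO, or 74.3 and 34.9 CPM, against 707 and 79 UMIs in WT, or 106 and 102 CPM, so both CKO libraries were below both WT libraries. The log2 change was -0.58 (SE 0.29, 95% interval -1.24 to 0.07), which did not pass edgeR's quasi-likelihood test (adjusted p = 0.983). Of the 12214 genes tested, 26.4% were lower in both CKO libraries in the same way, and 2 of the 6 members were, Rbpj and Maml2; 6.31% of the genes and 0 of the 6 members were higher in both. The free RNA share given above was also higher in both CKO libraries, and its part in the result was not tested. A fit with the free RNA estimate subtracted gave a change of -0.68 (SE 0.42) and depends on that estimate.

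The size of the macrophage-like Rbpj change varied. It was -0.21 within the first replicates and -1.44 within the second, where CKO rests on 11 UMIs, -1.26 without CKO replicate 1 and -0.34 without CKO replicate 2. Without doublet removal it was -0.13 (SE 0.34), and with sums thinned to the smallest library -1.02 (SE 0.35, adjusted p = 0.892). Sub-cluster 3, where Rbpj was highest, made up 99 of 2229 and 6 of 168 nuclei in CKO and 266 of 2688 and 25 of 420 in WT. Without it Rbpj stood at 66.9 and 26.4 CPM in CKO and 94.2 and 86.1 CPM in WT, with a log2 change of -0.56 (SE 0.31).

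The other 5 members tested in macrophage-like nuclei had smaller changes relative to their errors. Maml2 had 512 and 416 CPM in CKO and 630 and 651 CPM in WT (log2 change -0.29, SE 0.28). Maml3 had 275 and 118 CPM in CKO and 323 and 261 CPM in WT (-0.34, SE 0.32), which overlap. Maml1 was at 0.05 (SE 0.29), Spen at 0.25 (SE 0.23) and Hes1 at -0.03 (SE 0.32), the last on counts of which free RNA would account for 88.2%.

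In endothelial-like nuclei Rbpj had 98 and 12 UMIs in CKO, or 48.0 and 43.8 CPM, and 199 and 13 UMIs in WT, or 62.2 and 29.5 CPM. The CKO values lie between the WT values, and the log2 change was 0.11 (SE 0.31, 95% interval -0.60 to 0.82, edgeR adjusted p = 1.0). Maml1 had 23.0 and 21.9 CPM in CKO and 36.9 and 24.97 CPM in WT (log2 change -0.32, SE 0.35), and Maml3 361 and 270 CPM in CKO and 497 and 388 CPM in WT (-0.28, SE 0.27). These 2 of the 6 members were lower in both CKO libraries than in both WT libraries, against 27.8% of the 10102 genes tested, and 0 were higher in both, against 6.59%. Maml2 was at -0.01 (SE 0.31), Spen at 0.21 (SE 0.31) and Hes1 at -0.11 (SE 0.38).

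No member was called in hepatocyte-like or mesenchymal-like nuclei either. The hepatocyte-like fit could find little, since it called 0 of the simulated 2-fold and 2 of the simulated 4-fold changes. In hepatocyte-like nuclei the same 6 members were tested and 0 were called (0.0% of 13377 genes), and Rbpj had 62.9 and 45.0 CPM in CKO and 61.3 and 48.2 CPM in WT (log2 change 0.05, SE 0.21). Spen, at 94.7 and 86.3 CPM in CKO and 85.7 and 82.4 CPM in WT, was the only member higher in both CKO libraries, as were 7.74% of the genes tested (log2 change 0.18, SE 0.18), and 0 of the 6 members were lower in both, against 16.6%. In mesenchymal-like nuclei Heyl also passed the filter, and 0 of 7 members were called (0.0% of 8648 genes). Rbpj had 64.5 and 34.0 CPM in CKO and 87.9 and 58.4 CPM in WT (-0.29, SE 0.30). That change came to -0.92 and -0.14 with CKO replicate 1 or 2 dropped, and to -0.11 and -0.44 with WT replicate 1 or 2 dropped. Heyl had a log2 change of -0.29 (SE 0.52, 95% interval -1.46 to 0.88). Maml2 and Maml3 were lower in both CKO libraries, 2 of the 7 members, against 27.1% of the genes tested, and 0 were higher in both, against 9.81%. At an unadjusted p under 0.05 there were 227 hepatocyte-like and 643 mesenchymal-like genes, and DESeq2 called 2 and 1 in that order. With each library left out in turn edgeR called 0 to 155 hepatocyte-like genes, the 155 when CKO replicate 1 was dropped. In mesenchymal-like nuclei it called 26 to 342, of which 175 and 342 when CKO replicate 1 or 2 was dropped and 29 and 26 when WT replicate 1 or 2 was.

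**Figure D4:**
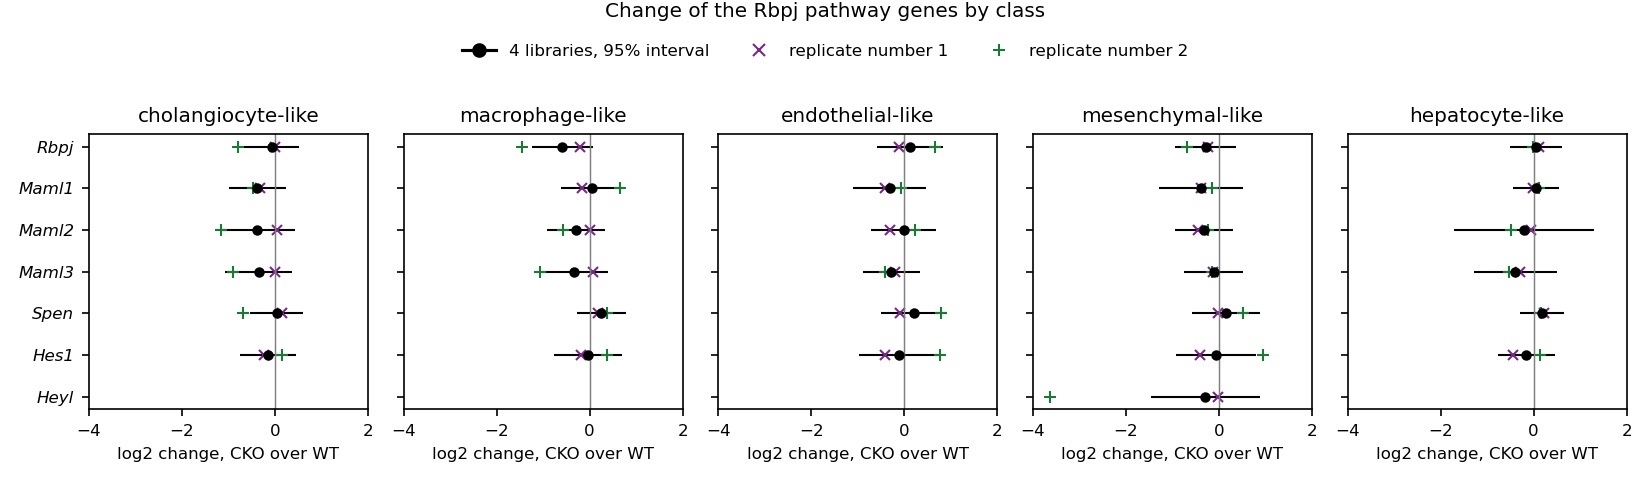
Log2 change, CKO over WT, of the members tested in each class, as the edgeR estimate from 4 libraries with its 95% interval (black), and within each replicate number (cross and plus, no test). Each 95% interval covers 0, and the 2 replicate numbers of Rbpj in macrophage-like nuclei lie at -0.21 and -1.44.

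Without WT replicate 1, the library with most Cre UMIs, the Rbpj change was -0.09 in cholangiocyte-like, -0.79 in macrophage-like and 0.66 in endothelial-like nuclei. That of Hes1 was 0.01, 0.53 and 0.55 in the same order, the opposite sign to the change with all libraries. Maml2 was at -0.48, -0.48 and 0.05, and Maml3 at -0.49, -0.38 and -0.26. No member was called without it, and the lone WT library is then assumed to vary like the CKO group.

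Whether the change of a member differed between the 3 classes was tested in 1 fit with the libraries as a block. The Rbpj change in macrophage-like minus that in cholangiocyte-like nuclei was -0.39 on the log2 scale (SE 0.26, edgeR adjusted p = 0.978), and minus that in endothelial-like nuclei -0.42 (SE 0.27, adjusted p = 1.0). Of the 11894 genes tested, 10 (0.0841%) were called for macrophage-like minus cholangiocyte-like nuclei, 3 (0.0252%) for macrophage-like minus endothelial-like and 1 (0.00841%) for endothelial-like minus cholangiocyte-like, and 0 of the 6 members for each pair. These counts came to 124, 73 and 52 in that order when CKO replicate 2 was dropped and to 0, 0 and 1 when CKO replicate 1 was. They came to 4, 1 and 0 with WT replicate 1 dropped, to 2, 1 and 0 with WT replicate 2 dropped, and to 0 for each pair without the block.

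Other genes of the pathway, listed by role, were read from the same fits. Of 21 further corepressor genes, 19, 20 and 19 were tested in cholangiocyte-, macrophage- and endothelial-like nuclei in that order, and 0 were called in each. Their median log2 changes were -0.05, -0.08 and -0.13, against -0.02, -0.00072 and 0.01 over all genes tested. Gps2, a subunit of a histone deacetylase corepressor complex, had 13.6 and 20.5 CPM in CKO and 43.9 and 18.9 CPM in WT cholangiocyte-like nuclei (log2 change -1.24, SE 0.43, adjusted p = 0.931). In macrophage-like nuclei it had 16.6 and 22.2 CPM in CKO and 47.2 and 30.9 CPM in WT (-1.02, SE 0.30, edgeR adjusted p = 0.892). Ctbp2, a corepressor that binds dehydrogenase cofactors, was at -1.14 (SE 0.41) in cholangiocyte-like and -0.70 (SE 0.44) in macrophage-like nuclei. In endothelial-like nuclei the smallest p belonged to Tle1, a Groucho family corepressor (-0.60, SE 0.31).

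Of 8 coactivator genes besides the Maml family, 7, 8 and 7 were tested in these classes in the same order and 0 were called, with median log2 changes of 0.06, -0.03 and 0.01. Cdk8, the Mediator kinase that marks the Notch intracellular part for degradation, had the smallest p in all 3. Its level was 734 and 339 CPM in CKO and 375 and 277 CPM in WT cholangiocyte-like nuclei (log2 change 0.84, SE 0.36). It was 980 and 337 CPM in CKO and 418 and 369 CPM in WT macrophage-like nuclei (0.92, SE 0.41), and 996 and 452 CPM in CKO and 438 and 409 CPM in WT endothelial-like nuclei (0.96, SE 0.36, adjusted p = 0.944). CKO replicate 1 was the high library in each class. The second genes were Ccnc, the cyclin partner of Cdk8, at -0.57 (SE 0.40) in cholangiocyte-like and 0.77 (SE 0.45) in endothelial-like nuclei, and the acetyltransferase gene Ep300 at -0.26 (SE 0.23) in macrophage-like nuclei.

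Of 16 other Notch target genes, 9, 11 and 9 were tested and 0 were called, with medians of 0.13, 0.35 and 0.34. Ccnd1, the G1 cyclin D1, had 172 and 82.2 CPM in CKO and 106 and 91.3 CPM in WT cholangiocyte-like nuclei (log2 change 0.65, SE 0.28). It had 207 and 89.0 CPM in CKO and 86.8 and 100 CPM in WT macrophage-like nuclei (0.94, SE 0.34), and 205 and 102 CPM in CKO and 96.3 and 81.7 CPM in WT endothelial-like nuclei (1.04, SE 0.30, edgeR adjusted p = 0.903). Cdkn1a, the cell cycle inhibitor p21, had 47.6 and 20.5 CPM in CKO and 21.1 and 23.2 CPM in WT cholangiocyte-like nuclei (1.13, SE 0.32, adjusted p = 0.82), on 2 UMIs in CKO replicate 2. In macrophage-like nuclei it had 35.3 and 15.9 CPM in CKO and 18.2 and 21.9 CPM in WT (0.87, SE 0.36), and in both classes CKO replicate 2 was below both WT libraries. Efnb2, an arterial ephrin, was at -0.85 (SE 0.27) in endothelial-like nuclei, with 61.8 and 36.5 CPM in CKO and 122 and 95.3 CPM in WT. Ccnd1 and Cdkn1a were highest in CKO replicate 1 in each class given here.

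Of 9 receptors and ligands, 3, 3 and 5 were tested and 0 were called, with medians of -0.04, -0.03 and -0.13. Notch2, the main biliary Notch receptor, had 158 and 134 CPM in CKO and 194 and 159 CPM in WT cholangiocyte-like nuclei (log2 change -0.17, SE 0.24). Both CKO libraries were thus below both WT libraries, by little for CKO replicate 1 and WT replicate 2, as were 21.3% of the 10471 genes tested. In macrophage-like nuclei Notch2 was at -0.29 (SE 0.22). Notch1 was at 0.21 (SE 0.40) in cholangiocyte-like, -0.03 (SE 0.34) in macrophage-like and -0.15 (SE 0.34) in endothelial-like nuclei, and Notch4, an endothelial receptor, at -0.61 (SE 0.42) in endothelial-like nuclei. By level, Jag1, the ligand of biliary cells, averaged 102 ± 32.6 CPM in cholangiocyte-like nuclei and 46.4 ± 13.2 CPM or less in the other 4 classes (n = 4).

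The genes with the most similar pattern over the 20 sums of 5 classes by 4 libraries were found by Pearson correlation of log2(CPM + 5) among 12733 genes. For Heyl they were Ntrk3 (0.966), a neurotrophin receptor, Fbn2 (0.941), a fibrillin, and Prrx1 (0.927), a mesenchymal transcription factor. For Maml3 they were Adamts9 (0.951), a secreted protease, Ttc3 (0.948) and Cbx6 (0.946), and for Maml2 Klf7 (0.947), Parp8 (0.935) and Spata6 (0.933). For Rbpj they were Nln (0.881), Tex10 (0.867) and Brms1 (0.86), for Maml1 AU040320 (0.92), Cep57l1 (0.893) and Fam160a2 (0.892), for Spen Gpbp1l1 (0.865), Abhd17c (0.862) and Chdh (0.857), and for Hes1 Rybp (0.879), Tia1 (0.877) and Ralgapa1 (0.869). The points share libraries, depth and free RNA, so these are descriptions. Among the members, Maml2 and Maml3 were the most alike (0.701), and Rbpj had a correlation of 0.369 or less with each of the other 6 compared (Hey1 and Nrarp had too few UMIs).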

How the data were processed

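Single-nucleus libraries of fresh-frozen liver were made with 10x 3' chemistry and processed with Cell Ranger 5.0.1 on mm10, per the submitters' processing notes. The authors deposited whole-number UMI counts per gene and barcode; whether intron reads were counted is not given in the sources used here. From these counts, doublets were removed by Scrublet rank (0.8% per 1000 barcodes), nuclei were clustered with scanpy 1.11.5 (Leiden resolution 1.0, without the members and pathway genes), and clusters were named from at least 3 markers lying 1.5 times above the 10% of barcodes with fewest UMIs (1.2 times for hepatocytes, chosen after seeing the data). Counts were summed per class and library (classes with at least 20 nuclei in each) and fitted with edgeR 4.0.16 (R 4.3.3; quasi-likelihood, TMM, filterByExpr with a minimum count of 10), with DESeq2 1.42.0 as an alternative; adjusted p-values are Benjamini-Hochberg. Free RNA was estimated from unnamed barcodes scaled to secreted hepatocyte transcripts (mitochondrial genes in hepatocyte-like nuclei). Scripts were tested on simulated data, with 100 genes changed 2-fold and 100 changed 4-fold in each class. Of the 2-fold changes, 6 were called in cholangiocyte-, 7 in macrophage-, 4 in endothelial-, 4 in mesenchymal- and 0 in hepatocyte-like nuclei. Of the 4-fold changes, 69, 65, 47, 70 and 2 were called in that order. A gene not called may therefore still have changed. Intervals are exact Poisson; a count of 0 is limited by 3 UMIs. With 2 libraries a group, an exact permutation test cannot go below p = 0.333. Named genes are the members, the 2 smallest p of each list per class, and the 3 genes most like each member with at least 100 UMIs; 1 gene that this rule names is not reported here. Members and lists were chosen with earlier results of these data known. Alternatives were another scaling, no filter, other clustering, no doublet removal, free RNA subtraction, thinning, a replicate block and single libraries left out.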

Additional observations from a re-analysis of the deposited data

Results flagged for a closer look

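Among the 7 sequences counted beside the mouse genes, which no comparison above uses, a neomycin resistance sequence (Neo-PIGCN21AN) was higher in both CKO libraries than in both WT libraries. It had 100 and 20 UMIs in CKO, or 2.63 and 1.631 UMIs per 1e6 UMIs of all barcodes of the library, and 36 and 1 UMIs in WT, or 0.789 and 0.0719 on the same scale. It was picked out because the lowest CKO value, 1.631, lies above both control values.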

How the results depend on the processing

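Over 31 member changes and 444 alternatives with a test, 0 were called, 401 kept their sign, and the smallest adjusted p was 0.17. The number of genes called, 0 in each class with all libraries, became 105 in cholangiocyte-, 131 in macrophage-, 93 in endothelial- and 142 in mesenchymal-like nuclei without the low-count filter, and 4 in macrophage-, 2 in endothelial-, 2 in hepatocyte- and 1 in mesenchymal-like nuclei with DESeq2. With single libraries left out it ran over 0 to 36, 0 to 65, 0 to 422, 0 to 155 and 26 to 342 in cholangiocyte-, macrophage-, endothelial-, hepatocyte- and mesenchymal-like nuclei. The counts for differences between classes were 0 for each pair without the library block, and with single libraries left out 0 to 52 for endothelial minus cholangiocyte, 0 to 124 for macrophage minus cholangiocyte and 0 to 73 for macrophage minus endothelial. The replicate block called 3 genes in macrophage- and 14 in endothelial-like nuclei and 0 in the other 3 classes. Same-numbered libraries had a correlation of 0.116 in cholangiocyte-, 0.131 in macrophage-, 0.122 in endothelial-, 0.275 in hepatocyte- and 0.0772 in mesenchymal-like nuclei, and with 2 numbers only, the libraries share a number and are not taken as pairs. Within replicate numbers, Rbpj was -0.79 (second) in cholangiocyte-, -0.21 (first) and -1.44 (second) in macrophage- and 0.66 (second) in endothelial-like nuclei.

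Small changes turned sign, and the cause was not tested. Spen in cholangiocyte-like nuclei was -0.054 with DESeq2, -0.018 with the replicate block and -0.54 thinned. Maml1 in macrophage-like nuclei was -0.10 centred per library, -0.025 without doublet removal and -0.17 thinned, and Hes1 0.026 with DESeq2. In endothelial-like nuclei Rbpj was -0.11 thinned, Maml2 0.0030 with DESeq2, 0.0049 with RLE scaling and 0.18 with free RNA subtracted, and Hes1 0.058 with DESeq2 and 0.014 without doublet removal. In mesenchymal-like nuclei Maml3 was 0.074 with free RNA subtracted and 0.078 thinned, and Hes1 0.20 with DESeq2 and 0.069 with free RNA subtracted.

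With single libraries left out, signs turned within these ranges. In cholangiocyte-like nuclei Rbpj ran over -0.75 to 0.042, Spen -0.54 to 0.15 and Hes1 -0.19 to 0.12. In macrophage-like nuclei Maml1 ran over -0.055 to 0.45, Maml3 -1.02 to 0.043 and Hes1 -0.24 to 0.53, while Rbpj stayed at -1.26 to -0.34. In endothelial-like nuclei Rbpj ran over -0.080 to 0.66, Maml2 -0.25 to 0.22 and Hes1 -0.27 to 0.55. In hepatocyte-like nuclei Rbpj ran over -0.11 to 0.19, Maml1 -0.042 to 0.15, Maml2 -1.08 to 0.37 and Hes1 -0.38 to 0.040. In mesenchymal-like nuclei Maml1 ran over -0.68 to 0.25, Spen -0.044 to 0.66, Hes1 -0.30 to 0.54 and Heyl -7.58 to 0.0015, where the lowest value is a fitted one against a library at 0 and no bound. The Rbpj difference, endothelial minus cholangiocyte, ran over -0.15 to 0.72. Depth limits CKO replicate 2 most, with 45 cholangiocyte-like nuclei and 4 Rbpj UMIs there. Leaving out mixed sub-clusters was chosen after seeing the data.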

Other observations

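EYFP, a reporter sequence counted beside the mouse genes, had 20 and 39 UMIs in CKO and 265 and 8 in WT. Cholangiocyte-like nuclei held 0 and 0 of these in CKO and 41 and 1 in WT, on 1471031 and 97388 UMIs of the class in CKO and 4599969 and 689755 in WT. WT replicate 1 also had 40 in macrophage-, 35 in hepatocyte-, 17 in mesenchymal- and 16 in endothelial-like nuclei and 72 in unnamed barcodes. CKO replicate 2 had 14 in hepatocyte-like nuclei and 22 in unnamed barcodes. In the dendritic-like Flt3 cluster, where Rbpj was highest, Maml2 had 36 and 0 UMIs in CKO, or 190 and 0.0 CPM, and 88 and 5 UMIs in WT, or 244 and 448 CPM. In the dendritic-like Siglech cluster, Maml2 had 19 and 12 UMIs in CKO, or 477 and 431 CPM, and 192 and 9 UMIs in WT, or 768 and 476 CPM. The 95% exact Poisson intervals of the 2 clusters do not overlap in the first replicates and overlap in the second, where the Flt3 cluster has 2 CKO and 5 WT nuclei.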
